A study of Mus musculus with 6 samples.

Results

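Fibronectin and the matricellular glycoproteins were followed through 10 genes, chosen by symbol: Fn1, Sparc, Sparcl1, Postn, Tnc, Tnxb, Thbs1, Thbs2, Mfap5 and Mgp. All 10 were matched to a single Ensembl identifier among the 35122 genes of the count table, and all 10 passed the filter on low counts that left 13925 genes for testing. Fibronectin is a large secreted glycoprotein that cells assemble into fibrils through integrins, and those fibrils form an early scaffold on which collagen and fibrillin are laid down. Matricellular proteins are secreted into the same matrix but are regulators rather than load-bearing parts: they bind growth factors, collagens and cell surface receptors and are made most strongly in developing, expanding or injured tissue. In fat, SPARC, the thrombospondins and tenascin C are known for their part in the remodeling of the matrix as adipocytes enlarge.

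RNA was measured in adipocytes from the epididymal fat of 3 control mice (PU.1 fl/fl, in which loxP sites flank an exon of Spi1, the gene of the transcription factor PU.1, but no Cre is present) and 3 aPU.1KO mice (AdipoqCre-PU.1 fl/fl, carrying the same alleles and a Cre transgene under the adiponectin promoter), with 1 library per mouse. All mice were C57BL/6 males on standard chow, with an age of 10 to 11 months in the sample labels and of more than 1 year in the study's text. The cells were the layer that floated after collagenase digestion, so that cells attached to adipocytes could be carried along, and Cre from this promoter acts in adipocytes and not in such cells. The libraries held 20550252 to 69283842 counts, and control mouse 1 was the deepest.

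Spi1 was counted at 24.3, 6.35 and 26.7 CPM (counts-per-million, scaled by TMM factors) in control mice 1, 2 and 3 and at 3.2, 1.22 and 4.17 CPM in aPU.1KO mice 1, 2 and 3. The highest aPU.1KO value lay below the lowest control value. The log2 fold change, aPU.1KO over control throughout, was -2.75 (SE 0.64, adjusted p = 0.0788 in edgeR's quasi-likelihood test), and control mouse 2 was much closer to the aPU.1KO mice than the other control mice were. The count is per gene and includes the exons that Cre does not remove.

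Most of the 10 genes were counted at lower levels in aPU.1KO adipocytes. By the fold change fitted in edgeR, the level in control adipocytes was 4.24 times that in aPU.1KO adipocytes for Mgp, 3.23 times for Fn1, 2.38 times for Tnxb and 2.08 times for Mfap5, which bind or build the fibrillar matrix or, in the case of matrix Gla protein, keep it from mineralizing. For Sparc, Sparcl1 and Postn it was 1.5, 1.58 and 1.58 times, and Thbs1 was the gene with the higher mean in aPU.1KO adipocytes, set by a single mouse. Markers of fibroblasts and macrophages were lower in the same libraries, with values given below.

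None of the 10 genes passed an adjusted p of 0.05 in edgeR's quasi-likelihood test, which called 0.237% of all genes tested (0.18% lower and 0.0575% higher). At an adjusted p of 0.1 the same test called 4 of the 10 lower (Fn1, Postn, Tnxb and Mfap5) and 0 higher, against 6.15% and 3.09% of all genes. At an unadjusted p of 0.05, 7 of the 10 were lower in aPU.1KO adipocytes and 0 were higher, against 25.7% of all genes in either direction, 13.7% lower and 11.9% higher. The 7 were Fn1, Sparcl1, Postn, Tnc, Tnxb, Mfap5 and Mgp. The groups did not overlap for 6 of the 10 (Fn1, Sparc, Sparcl1, Postn, Tnxb and Mfap5), with the aPU.1KO mice below, as in 15.5% of all genes, and in 0 with the aPU.1KO mice above, as in 16.7%. The log2 fold changes were below 0 for 9 of the 10 (48% of all genes) and below -1 for 4 (7.95% of all genes), with a median of -0.81, where the median of all genes tested was 0.01. DESeq2, the test named in the study's methods, called 6 of the 10 lower at an adjusted p of 0.05 (Fn1, Postn, Tnc, Tnxb, Mfap5 and Mgp) and 0 higher, against 8.73% of all genes lower and 4.69% higher. The edgeR count also depended on control mouse 2: without it, 3 of the 10 passed an adjusted p of 0.05 (Fn1, Tnxb and Mgp), among 1193 genes in all. With 3 mice in each group the smallest two-sided p of an exact permutation test is 0.1, so no such test is given for single genes.

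**Figure D1:**
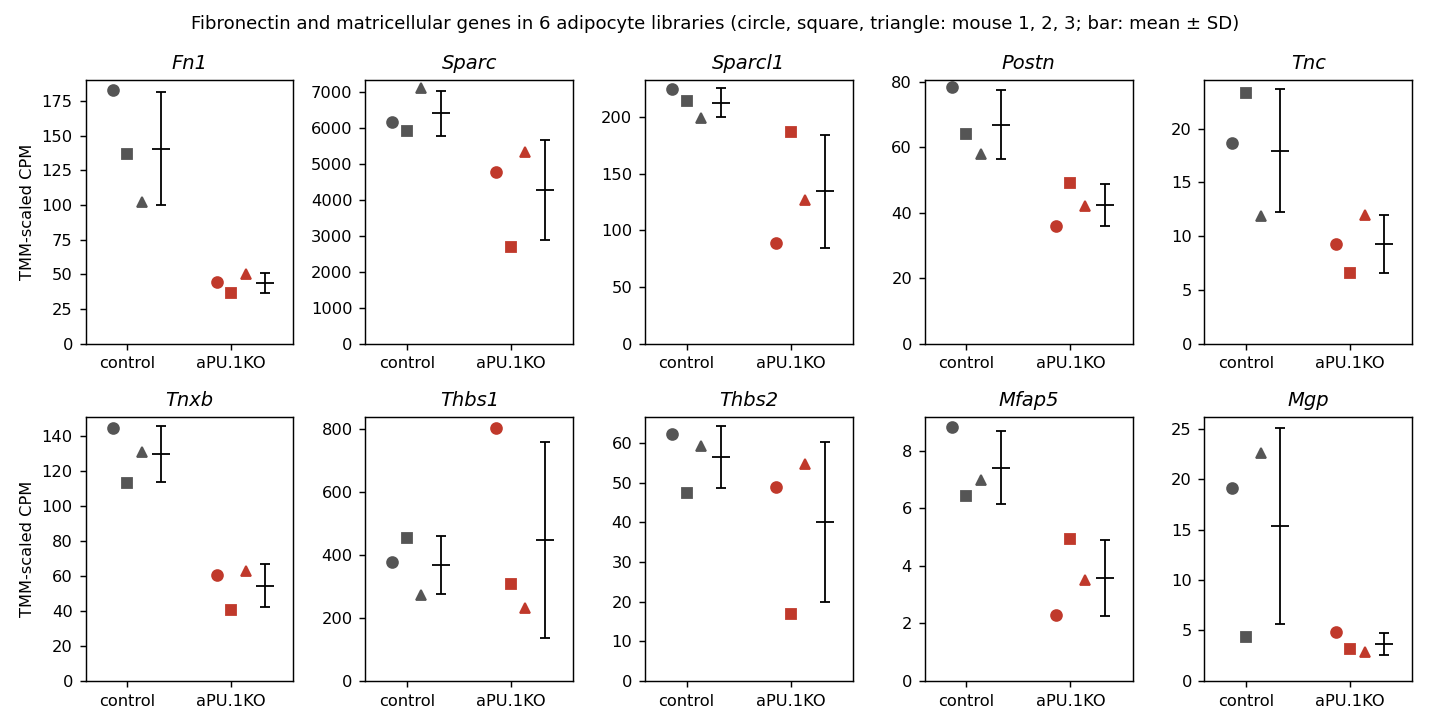
TMM-scaled CPM (y axis, from 0, a scale of its own for each gene) of the 10 genes in each control (grey) and aPU.1KO (red) mouse, with circles, squares and triangles for mice 1, 2 and 3 and the mean ± SD (n = 3) beside them. Fn1 and Tnxb showed wide gaps between the groups, Mgp was low in control mouse 2, and Thbs1 was highest in aPU.1KO mouse 1.

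Levels of different genes were compared as counts per kb of merged exon sequence, scaled to the same sum (counts-per-million) in each library. On this per-length scale Sparc, which encodes a collagen-binding glycoprotein that adipocytes themselves secrete, was by far the most abundant of the 10. Its level in control adipocytes was 5580 ± 634 (SD, n = 3), or 90.0% of the summed level of the 10 genes, and 3250 ± 1390 in aPU.1KO adipocytes, or 89.0%. Sparcl1 and Thbs1 followed in control adipocytes at 239 ± 13.8 and 199 ± 46.6, and these 2 neighbors lay within their spread. Mgp (43.0 ± 27.5), Fn1 (39.8 ± 11.4), Tnxb (35.1 ± 4.85), Thbs2 (26.6 ± 4.05) and Postn (25.4 ± 4.03) came next, with overlapping ranges between neighbors in this order except Tnxb and Thbs2, of which the lowest Tnxb value (29.9) was just above the highest Thbs2 value (29.5). Tnc and Mfap5 were the lowest, at 7.61 ± 2.33 and 6.83 ± 1.22, and did not differ from each other beyond their spread either. The 10 genes together took 0.763%, 0.70% and 0.86% of the counts of control mice 1, 2 and 3, and 0.562%, 0.303% and 0.597% of those of aPU.1KO mice 1, 2 and 3. Most of these counts were Sparc, with 447432 of 528609 in control mouse 1 and 59320 of 73738 in aPU.1KO mouse 2. The shares therefore mainly follow Sparc, which was lowest in aPU.1KO mouse 2.

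**Figure D2:**
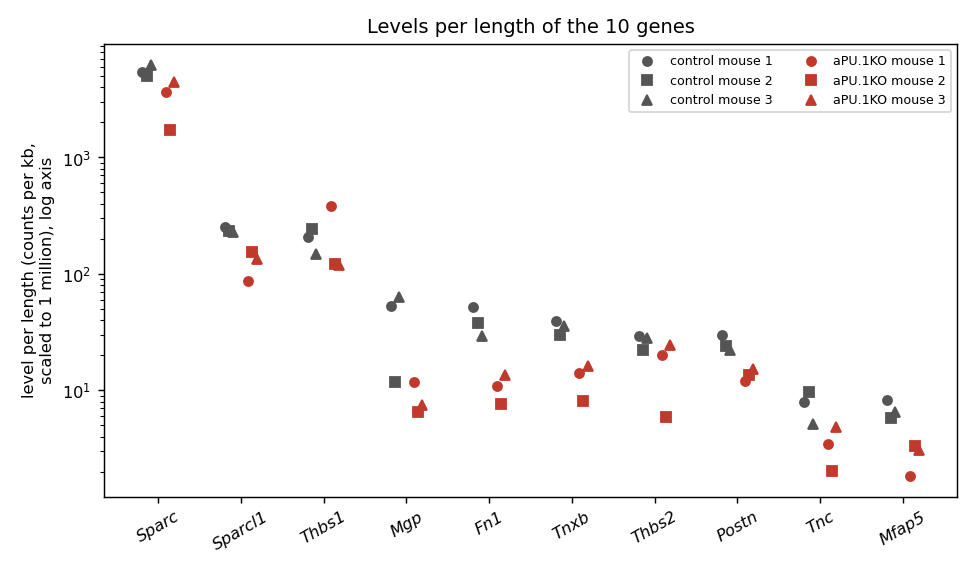
Level per length (counts per kb of merged exons, scaled to the same sum (counts-per-million) in each library, log axis) of the 10 genes in each mouse, ordered by their mean in control adipocytes. Sparc stood more than an order of magnitude above the other 9 genes in the control mice, and Tnc and Mfap5 were the lowest.

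Fn1 (ENSMUSG00000026193, chromosome 1, 71585520 to 71653200, minus strand, GRCm38) encodes fibronectin itself. It was counted at 183, 137 and 102 CPM in the control mice and at 44.4, 36.5 and 50.3 CPM in the aPU.1KO mice. The lowest control value was well above the highest aPU.1KO value, and the control mice varied more than the aPU.1KO mice. The mean was 140.9 ± 40.5 CPM against 43.7 ± 6.91 CPM, with a log2 fold change of -1.69 (SE 0.23). Its edgeR p of 0.000162 was number 36 among the 13925 genes, its edgeR adjusted p was 0.0627 and its DESeq2 adjusted p 5.62e-10. Leaving out each mouse in turn gave log2 fold changes between -1.88 and -1.47. An antisense gene, Apol7d, overlaps 292 bases of its exons and was not counted separately, so that reads from the pair cannot be told apart without strand.

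The integrins that bind fibronectin and its relatives were taken from a list of 15 receptors, of which 13 were tested. 7 of the 13 were lower at an unadjusted edgeR p of 0.05 and 0 were higher, against 13.7% and 11.9% of all genes. An adjusted p of 0.05 was passed by 0 of them, and the median log2 fold change was -0.58. The lowest was Itga4, the alpha chain of a fibronectin-binding integrin of leukocytes, at 21.1, 7.4 and 16 CPM in the control mice and 4.42, 3.8 and 4.59 CPM in the aPU.1KO mice (log2 fold change -1.80, SE 0.37, edgeR adjusted p = 0.0764). Stab1, a scavenger receptor that takes up SPARC, had a log2 fold change of -1.42 (SE 0.22, edgeR adjusted p = 0.0718). Itga9, the alpha chain of a tenascin-binding integrin, had one of -1.36 (SE 0.25, edgeR adjusted p = 0.0725). At the other end of the list were Cd36, a thrombospondin receptor and fatty acid transporter abundant in adipocytes (0.10, SE 0.14), and Sdc4, a heparan sulfate proteoglycan (0.36, SE 0.30). Sdc4 was high in aPU.1KO mouse 2 alone, with 132 CPM there and between 57.3 and 68.2 CPM in the other mice. Itga4 is mainly a leukocyte gene, and like the summed macrophage markers described below it was lowest among the control mice in mouse 2.

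The SPARC pair gave smaller differences. Sparc (ENSMUSG00000018593, chromosome 11, 55394500 to 55423183, minus strand) was counted at 6160, 5910 and 7110 CPM in the control mice and at 4780, 2680 and 5330 CPM in the aPU.1KO mice. The groups were apart, but aPU.1KO mouse 3 lay close to control mouse 2, and mouse 2 of the aPU.1KO group was much lower than the rest. The means were 6397 ± 634 and 4263 ± 1398 CPM, with a log2 fold change of -0.59 (SE 0.27, edgeR adjusted p = 0.225), which became -0.34 without aPU.1KO mouse 2.

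Sparcl1 (ENSMUSG00000029309, chromosome 5, 104079111 to 104113733, minus strand), which encodes hevin, an anti-adhesive relative of SPARC, was counted at 225, 214 and 199 CPM in the control mice and at 88.7, 187 and 127 CPM in the aPU.1KO mice. The control mice were nearly equal, with a coefficient of variation of 5.99%, and the aPU.1KO mice were spread, with one of 37.1%. The log2 fold change was -0.66 (SE 0.25, edgeR adjusted p = 0.163) and lay between -0.98 and -0.45 with each mouse left out. The low mouse was not the same for the pair: aPU.1KO mouse 2 was the lowest of all 6 for Sparc and the highest of its group for Sparcl1. Over the 6 libraries the log2 CPM values of Sparc and Sparcl1 had a Pearson r of 0.17, given as a description of libraries that share the 2 genotypes.

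Periostin, tenascin C and tenascin X are made mainly by fibroblasts and other mesenchymal cells. Postn (ENSMUSG00000027750, chromosome 3, 54361109 to 54391037, plus strand), whose product links collagen to fibronectin and tenascin C, was counted at 78.5, 64.1 and 58 CPM in the control mice and at 36, 49 and 42.1 CPM in the aPU.1KO mice. The groups were apart, with similar relative spread in both (coefficients of variation of 15.7% and 15.4%). Its log2 fold change was -0.66 (SE 0.15, edgeR adjusted p = 0.0786, DESeq2 adjusted p = 0.00294). It was as large as that of Sparcl1 with a smaller error.

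Tnxb (ENSMUSG00000033327, chromosome 17, 34670535 to 34719815, plus strand) encodes tenascin X, which binds collagen fibrils and whose loss in people gives a form of Ehlers-Danlos syndrome. It was counted at 145, 113 and 131 CPM in the control mice and at 60.5, 40.5 and 62.7 CPM in the aPU.1KO mice. After Fn1 it showed the clearest separation of the 10, with means of 129.9 ± 16.3 and 54.5 ± 12.3 CPM. The log2 fold change was -1.25 (SE 0.18), the edgeR adjusted p 0.0718 and the DESeq2 adjusted p 2.29e-07. Leaving out each mouse gave between -1.36 and -1.08. Tnxb shares 9.69% of its 31-base words with the pseudogene Tnxa nearby, to which at most 2 counts were assigned in any library, against 895 to 10555 counts for Tnxb.

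Tnc (ENSMUSG00000028364, chromosome 4, 63959785 to 64047015, minus strand) encodes tenascin C, which is sparse in resting tissue and induced in injury. It was counted at 18.7, 23.3 and 11.9 CPM in the control mice and at 9.3, 6.55 and 12 CPM in the aPU.1KO mice. The groups just overlapped, since aPU.1KO mouse 3 was level with control mouse 3. Its log2 fold change was -0.95 (SE 0.30, edgeR adjusted p = 0.12, DESeq2 adjusted p = 0.0285). An opposite-strand transcript, 8030451A03Rik, overlaps 176 bases of its exons and was not counted separately.

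Start regions of 2 of these genes are shown because Postn and Tnxb had the lowest p-values of the members found in the RefSeq promoter table, and because PU.1 recognizes a purine-rich core, GAGGAA. Each sequence holds the 250 bases before an annotated start in GRCm38.p6, both on the plus strand, Postn at chr3:54360857-54361106 and Tnxb at chr17:34670285-34670534. Capitals mark GAGGAA or TATAAA, searched on both strands.
Postn: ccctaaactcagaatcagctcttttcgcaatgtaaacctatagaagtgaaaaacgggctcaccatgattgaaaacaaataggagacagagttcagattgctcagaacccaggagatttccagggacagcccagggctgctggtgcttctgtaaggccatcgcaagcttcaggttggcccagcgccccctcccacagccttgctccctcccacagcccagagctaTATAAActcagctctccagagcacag
Tnxb: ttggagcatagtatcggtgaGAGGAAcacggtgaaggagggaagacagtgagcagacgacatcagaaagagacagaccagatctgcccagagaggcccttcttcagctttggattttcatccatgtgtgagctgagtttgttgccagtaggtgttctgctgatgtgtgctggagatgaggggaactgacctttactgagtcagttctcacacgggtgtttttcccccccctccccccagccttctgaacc
The Postn window held TATAAA from position -26, counted from the start, and no GAGGAA, while the Tnxb window held GAGGAA from position -230 and no TATAAA. A further annotated start of Postn had neither motif. Of 32851 windows of 250 bases before mouse starts, 23.3% held GAGGAA and 12.4% TATAAA, so that 1 match of the first motif is common. These letters describe the sequence and do not show binding. Sparc, Tnc and Thbs2 had entries as well and Fn1, Sparcl1, Thbs1, Mfap5 and Mgp had none. The Sparc window held neither motif, and the Thbs2 window held TATAAA from position -126, on the opposite strand, and no GAGGAA. For Tnc, 1 start had TATAAA from position -126 and no GAGGAA. The window of another Tnc start, which meets an exon of the gene, held GAGGAA from position -44 and TATAAA from position -205.

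Thbs1 was the gene of the 10 with a log2 fold change above 0. It and Thbs2 are thrombospondins. Thbs1 (ENSMUSG00000040152, chromosome 2, 118111876 to 118127133, plus strand) encodes a trimer that activates latent TGF-beta and inhibits angiogenesis. It was counted at 377, 453 and 271 CPM in the control mice and at 803, 307 and 231 CPM in the aPU.1KO mice. A single library set its mean: aPU.1KO mouse 1 was the highest of all 6, and the other aPU.1KO mice lay within or below the control range. For Thbs1 the log2 fold change was 0.28 (SE 0.46, edgeR adjusted p = 0.733) and turned to -0.46 without aPU.1KO mouse 1 (edgeR adjusted p = 0.338). A noncoding gene on the opposite strand, Gm29233, overlaps 208 bases of its exons.

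Thbs2 (ENSMUSG00000023885, chromosome 17, 14665500 to 14694235, minus strand), a thrombospondin of fibroblasts with the same anti-angiogenic domain type, was counted at 62.3, 47.5 and 59.3 CPM in the control mice and at 48.8, 17 and 54.6 CPM in the aPU.1KO mice. Only aPU.1KO mouse 2 lay outside the control range. The log2 fold change of -0.49 (SE 0.39, edgeR adjusted p = 0.465) became -0.13 without that mouse. The 2 thrombospondins did not vary together: over the 6 libraries their log2 CPM values had a Pearson r of 0.08.

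Thbs1 responds to serum and to the stress of tissue dissociation, so 16 immediate early genes were read beside it. Their summed level was 3480 to 4290 CPM in the control mice and 5230, 8080 and 2750 CPM in aPU.1KO mice 1, 2 and 3. The median log2 fold change of the list was 0.52, with 0 of 16 genes at an unadjusted edgeR p of 0.05 in either direction, against 25.7% of all genes. The highest sum belonged to aPU.1KO mouse 2, and that of mouse 1, in which Thbs1 was high, also lay above the control range. Within the list Ier3 had the largest log2 fold change (1.10, SE 0.54, edgeR adjusted p = 0.250), followed by Egr2 (0.99, SE 0.55), and Dusp1 (-0.15), Egr3 (0.07) and Junb (0.30) had the smallest. In aPU.1KO mouse 2 the values were 115 CPM for Ier3 and 384 CPM for Egr2, against 26.6 to 28.1 and 104 to 135 CPM in the control mice. The part of this response in the levels of the thrombospondins was not tested.

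Mfap5 and Mgp encode small proteins tied to microfibrils and mineralization. Mfap5 (ENSMUSG00000030116, chromosome 6, 122505845 to 122529290, plus strand), whose product binds fibrillin, was counted at 8.84, 6.43 and 6.98 CPM in the control mice and at 2.29, 4.93 and 3.51 CPM in the aPU.1KO mice. The groups were apart, with aPU.1KO mouse 2 the nearest to the controls. Mfap5 had a log2 fold change of -1.05 (SE 0.29, edgeR adjusted p = 0.0992, DESeq2 adjusted p = 0.0122).

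Mgp (ENSMUSG00000030218, chromosome 6, 136872435 to 136875823, minus strand) encodes matrix Gla protein, an inhibitor of calcification that needs vitamin K-dependent carboxylation. It was counted at 19.1, 4.33 and 22.6 CPM in the control mice and at 4.88, 3.21 and 2.84 CPM in the aPU.1KO mice. Control mouse 2 lay inside the aPU.1KO range, so that the groups overlapped although this was the most negative log2 fold change of the 10 (-2.08, SE 0.59, edgeR adjusted p = 0.101, DESeq2 adjusted p = 0.00284). Without control mouse 2 it was -2.53. The same mouse was the low control for Spi1 and for the summed macrophage markers, at 447 CPM against 1370 and 1330 CPM in control mice 1 and 3.

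**Figure D3:**
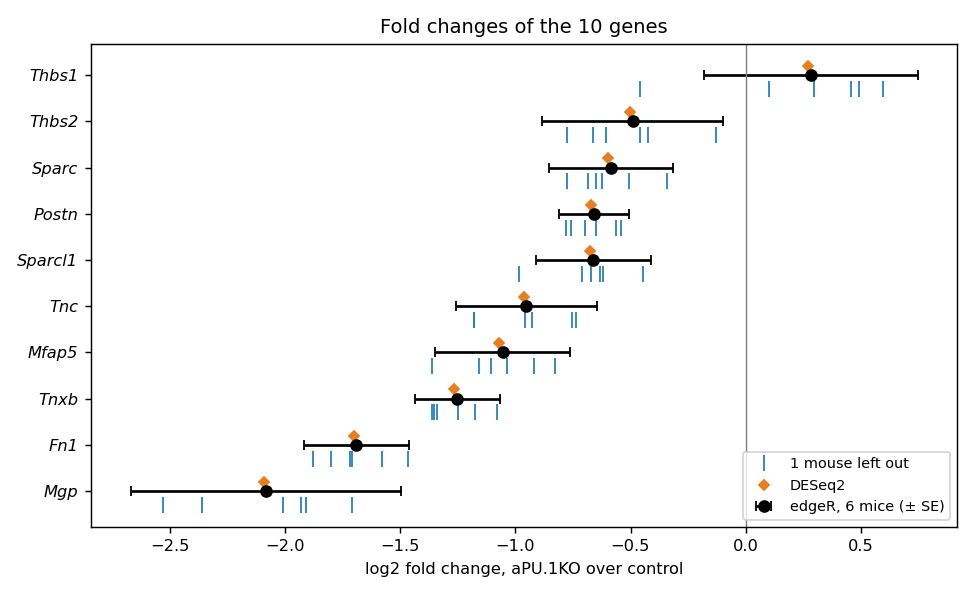
Log2 fold change (x axis, aPU.1KO over control) of the 10 genes in edgeR with its SE (black, 6 mice), in DESeq2 (orange) and with each mouse left out of the edgeR fit in turn (blue ticks). The tick of Thbs1 that lies below 0 is the fit without aPU.1KO mouse 1, and the other 9 genes stayed below 0 in every fit drawn.

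Further genes were read from lists of relatives and partners. Of 25 relatives of the members (other SPARC, thrombospondin, tenascin, CCN, microfibril and fibronectin-type genes), 17 were tested. 10 of the 17 were lower and 1 higher at an unadjusted edgeR p of 0.05, against 13.7% and 11.9% of all genes. An adjusted p of 0.05 was passed by 0 of the 17, and the median log2 fold change was -1.09. Spp1, the macrophage-rich glycoprotein osteopontin, was the lowest, at 20.2, 1.66 and 20.3 CPM in the control mice and 1.68, 0 and 1.14 CPM in the aPU.1KO mice (log2 fold change -3.93, SE 1.17, edgeR adjusted p = 0.108). Control mouse 2 was again with the aPU.1KO mice. Fstl1, a secreted SPARC-family protein, had a log2 fold change of -1.96 (SE 0.46, edgeR adjusted p = 0.0792) and Mfap2, a fibrillin-binding relative of Mfap5, one of -1.94 (SE 0.28, edgeR adjusted p = 0.0714). Smoc1 was the 1 higher gene, at 274, 349 and 263 CPM in the control mice and 363, 363 and 374 CPM in the aPU.1KO mice (0.31, SE 0.12, edgeR adjusted p = 0.174). Ccn1, a matricellular gene of the immediate early type, had a log2 fold change of 0.16 (SE 0.28).

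Of 15 matrix partners and enzymes that act on these proteins, 14 were tested. At an unadjusted edgeR p of 0.05, 8 were lower and 0 higher, against 13.7% and 11.9% of all genes. The median log2 fold change was -0.57. Fbn1, which encodes fibrillin-1, the core of the microfibrils that Mfap5 binds, fell and was the only gene of these lists past an adjusted p of 0.05. It was counted at 82.2, 73.8 and 50.7 CPM in the control mice and at 17.1, 20.3 and 17.6 CPM in the aPU.1KO mice (log2 fold change -1.91, SE 0.19, edgeR adjusted p = 0.0268). Mmp2, a gelatinase that also cleaves fibronectin, had a log2 fold change of -1.51 (SE 0.38, edgeR adjusted p = 0.0873) and Eln, elastin, one of -0.91 (SE 0.18, edgeR adjusted p = 0.0760). The number of genes in these companion lists past that threshold was 0 without control mouse 1 or without any 1 of the aPU.1KO mice, and 18 without control mouse 2. Bmp2 (0.41, SE 0.30) and Bmp4 (0.73, SE 0.36), growth factors that matrix Gla protein binds, were at the other end, with overlapping groups.

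**Figure D4:**
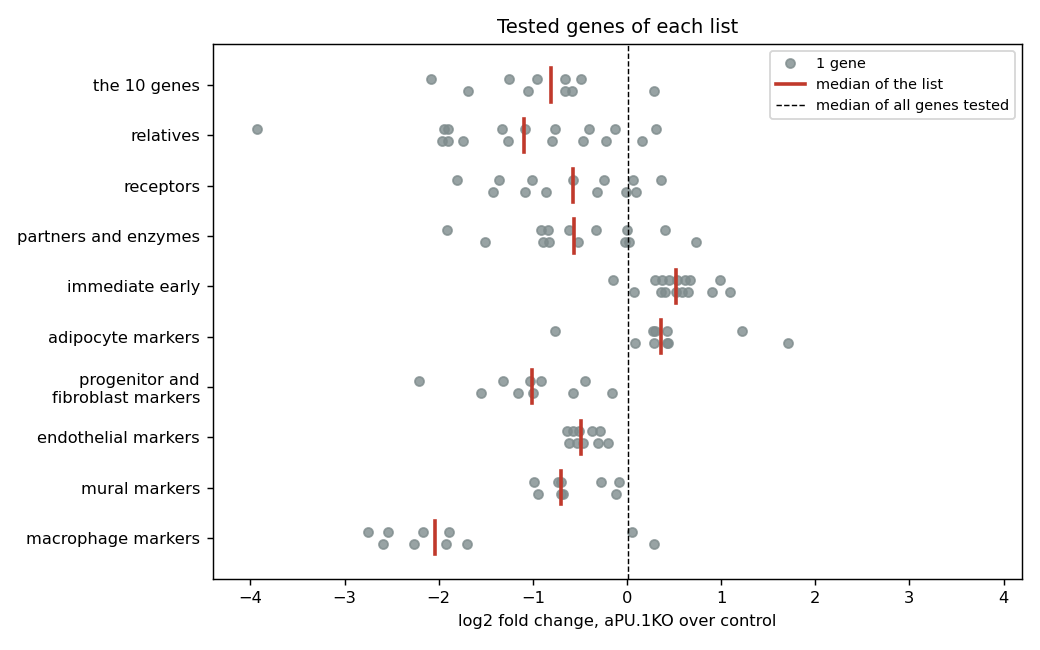
Log2 fold change (x axis, aPU.1KO over control, edgeR) of the tested genes of each list (1 point per gene), with the median of the list in red and the median of all 13925 genes tested as a dashed line. The 10 genes had a median of -0.81, between the endothelial and mural markers on one side and the progenitor and fibroblast markers on the other.

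Most of the 10 genes are also expressed by cells other than adipocytes, and markers of those cells differed between the groups. Of 10 progenitor and fibroblast markers, 7 were lower and 0 higher at an unadjusted edgeR p of 0.05, against 13.7% and 11.9% of all genes. Their summed level was 712 to 1370 CPM in the control mice and 420 to 657 CPM in the aPU.1KO mice. The most abundant of them per length were Dpt, a matrix protein of fibroblasts (log2 fold change -1.03, SE 0.35, edgeR adjusted p = 0.135), and Dcn, the proteoglycan decorin (-0.91, SE 0.27, edgeR adjusted p = 0.105). Of 10 macrophage markers 8 were lower and 0 higher, and their sum was 447 to 1370 CPM against 239 to 315 CPM. The most abundant of them per length were Lyz2 (log2 fold change -2.26, SE 0.58, edgeR adjusted p = 0.0902) and C1qb (-2.17, SE 0.47, edgeR adjusted p = 0.0783). The other direction was held by Mertk, an engulfment receptor (0.06, SE 0.17), and Cd163, a hemoglobin scavenger receptor (0.29, SE 0.63), with overlapping groups, and Cd163 was highest in control mouse 2 (11.1, 23.9 and 2.97 CPM in the control mice and 11.3, 19 and 15.8 CPM in the aPU.1KO mice). Mrc1, the mannose receptor, fell past the adjusted threshold (-1.69, SE 0.19, edgeR adjusted p = 0.0389). In bulk RNA, fewer cells of a type and less RNA per cell cannot be told apart.

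Of 10 mural markers, 9 were tested and 6 were lower at an unadjusted edgeR p of 0.05, where 13.7% of all genes were lower and 11.9% higher. Pdgfrb was past the adjusted threshold (log2 fold change -0.95, SE 0.12, edgeR adjusted p = 0.0491), and the sum of the list was 581 to 849 against 452 to 586 CPM. The most abundant mural markers per length, Acta2 and Rgs5, had log2 fold changes of -0.11 (SE 0.57) and -0.70 (SE 0.22). Of 10 endothelial markers 1, Cdh5, was lower at an unadjusted edgeR p of 0.05 (-0.61, SE 0.26), and Cldn5 had a log2 fold change of -0.57 (SE 0.26). Their sum was 742 to 1120 against 450 to 934 CPM, with aPU.1KO mouse 2 inside the control range. Adipocyte markers lay the other way, with 7 of 10 higher and 1, Lep, lower, and a sum of 30300 to 33300 against 36500 to 43100 CPM. Fabp4 and Adipoq, the most abundant per length, had log2 fold changes of 0.44 (SE 0.18) and 0.43 (SE 0.13). None of these lists had a marker at 0 in all libraries. Over all genes the calls at an adjusted edgeR p of 0.05 numbered between 0 and 1193 with 1 mouse left out.

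Smaller lists were nearer the floor. Mesothelial markers (8 of 10 tested) summed to 5.31 to 23.9 CPM in the control mice and 8.57 to 10.6 CPM in the aPU.1KO mice, with 0 past an unadjusted edgeR p of 0.05, and Upk3b and Gpm6a had log2 fold changes of -0.68 (SE 0.58) and -0.60 (SE 0.71). Lymphocyte markers (5 of 8 tested) summed to 4.73 to 6.86 and 2.8 to 4.4 CPM, again with 0 past that p, and Cd79a and Cd2 had log2 fold changes of -0.68 (SE 0.30) and -0.74 (SE 0.37). Of 8 epididymis markers 5 (Lcn5, Lcn6, Lcn8, Lcn9 and Cst11) were at 0 in all libraries, and the sum never exceeded 1.19 CPM. Rnase10 was not tested and Crisp1 had a log2 fold change of -0.07 (SE 1.11). All 8 hepatocyte markers were lower at an unadjusted edgeR p of 0.05 (13.7% of all genes). Of them 3 (Ttr, Apoa1 and Fgg) were past the adjusted threshold (0.18% of all genes lower). Their sum was 40.4 to 63.3 against 18 to 24.5 CPM, mostly Alb (-0.87, SE 0.23), and Apoa2 had a log2 fold change of -2.86 (SE 0.52).

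The 10 genes were then set against the mean log2 CPM of each marker list in the same library, an alternative chosen after the values had been seen. Such a scale shifts every gene by the change of the list, so each count is given with its share over all 13925 genes on the same scale. Relative to the progenitor and fibroblast list, whose mean log2 difference was -1.05, the groups overlapped for all 10 genes, whereas 76.2% of all genes were higher and 1.19% lower without overlap. The difference that was left was below 0 for Mgp (-0.73), Fn1 (-0.61), Tnxb (-0.22) and Mfap5 (-0.04) and above 0 for the other 6, from 0.12 for Tnc to 1.15 for Thbs1. Relative to the macrophage list, whose mean difference was -1.54, the groups overlapped for all 10 as well, with 79.3% of all genes higher and 0.768% lower. There the difference was below 0 for Mgp (-0.24) and Fn1 (-0.12) and above 0 for the other 8, from 0.27 for Tnxb to 1.64 for Thbs1. Relative to the mural list Fn1 alone was lower without overlap (-1.05) and 0 of the 10 were higher, against 1.63% of all genes lower and 60% higher. Relative to the endothelial list Fn1 (-1.14) and Mfap5 (-0.58) were lower and 0 were higher, against 1.43% and 17.7% of all genes. Relative to the adipocyte list, whose mean was 0.41 higher, 8 of the 10 were lower without overlap and 0 higher, the exceptions being Thbs1 and Thbs2, while 52.3% of all genes were lower and 1.08% higher. These are differences between measured levels in a fraction of mixed cells, and the part of any cell type in the levels of the 10 genes was not tested.

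The order of the mice divided the 10 genes further. Fn1, Sparc, Tnc, Tnxb and Thbs2 had their lowest value of all 6 libraries in aPU.1KO mouse 2 and their highest of that group in mouse 3. Within the aPU.1KO group Spi1 was likewise lowest in mouse 2 and highest in mouse 3 (3.2, 1.22 and 4.17 CPM). The summed macrophage markers were also lowest in mouse 2 (315, 239 and 297 CPM). Sparcl1, Postn and Mfap5 had another order, with the lowest value in aPU.1KO mouse 1 and the highest of that group in mouse 2. The summed progenitor and fibroblast markers (420, 657 and 545 CPM in aPU.1KO mice 1, 2 and 3) and endothelial markers (450, 934 and 625 CPM) shared that order. With 3 mice in a group few orders are possible, and a link between the genes and the markers was not tested. Mgp followed control mouse 2 and Thbs1 followed neither. Among the 45 pairs of the 10 genes the median Pearson r of log2 CPM over the 6 libraries was 0.63. The closest pairs were Postn and Mfap5 (0.97), Sparcl1 and Mfap5 (0.97), Fn1 and Tnxb (0.95) and Sparc and Thbs2 (0.95), and Sparcl1 and Thbs2 had an r of -0.07. These values describe 6 libraries that share the difference between the genotypes.

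**Figure D5:**
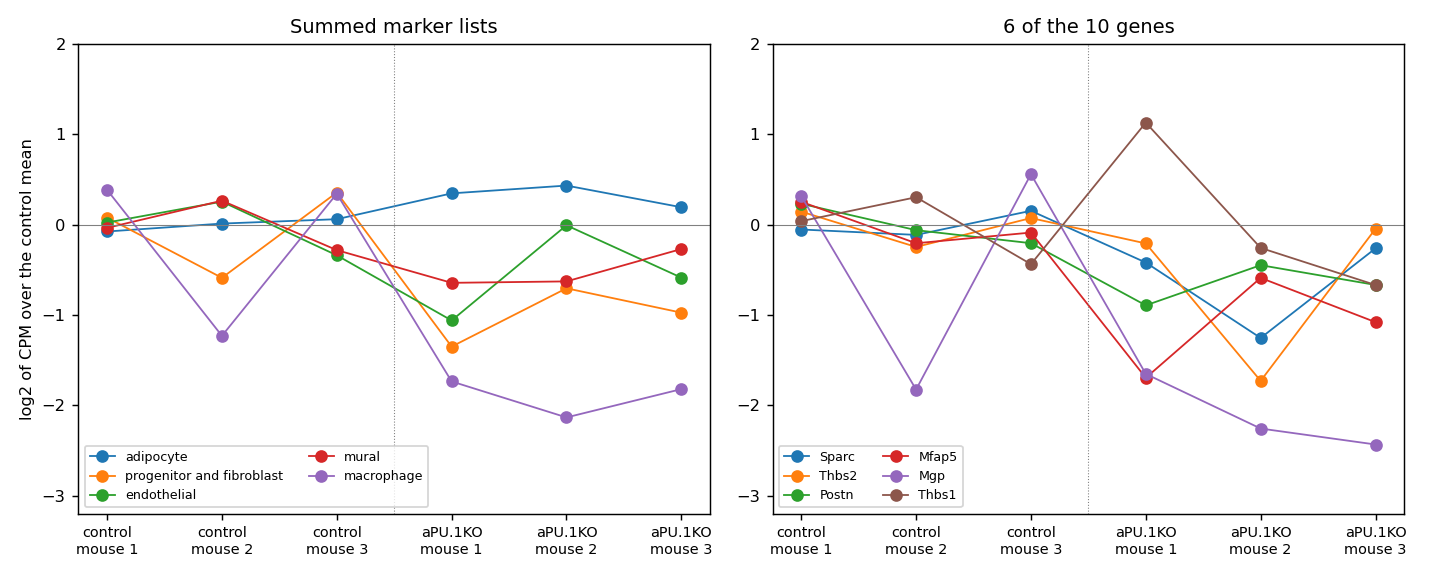
Log2 of CPM over the control mean (y axis) in each of the 6 mice for the summed marker lists (left) and for 6 of the 10 genes (right), with lines that only join the points of 1 list or gene. Mgp dipped in control mouse 2 as the summed macrophage markers did, and in the aPU.1KO group Sparc and Thbs2 were lowest in mouse 2 whereas Postn and Mfap5 were lowest in mouse 1.

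Across 11896 genes with an average log2 CPM of at least 1, the genes most like each member over the 6 libraries were found by Pearson r of log2 CPM. For Fn1 they were 9930111J21Rik1 and Smpd3 (0.995 and 0.992) and for Tnxb Cd300ld3 (0.995). Postn was closest to Vcan, which encodes the matrix proteoglycan versican (0.997), and to Gbp9 (0.995), and Mfap5 to Ggta1 and Rcn3 (both 0.993). Sparc was closest to Esrrg (0.999) and to Col18a1, which encodes a basement membrane collagen (0.996), Sparcl1 to Adora2a and Lbr (0.999 and 0.995), and Tnc to Clmp and Gm47626 (both 0.994). Thbs2 was closest to Synj2 and Gltp (0.999 and 0.997) and Thbs1 to Gm7240 and Cth (both 0.995). Mgp was closest to Sema4d and Vav1 (both 0.996), genes of blood cells. With 6 libraries and this many genes, values this high occur for every member and describe only the shape of its profile.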

How the data were processed

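RNA of the adipocyte fraction was sequenced in 3 control and 3 aPU.1KO mice. The authors quantified reads with Salmon (validateMappings) and deposited estimated counts summed per gene. The submitters' processing notes name GRCm38. The Salmon version and the annotation release are not given in the sources used here. The estimated counts are whole numbers and were used as deposited. Symbols and coordinates come from a GRCm38 annotation (35102 of 35122 genes matched, the others holding 0.0019% of counts), and promoters from RefSeq. Replicates are separate mice.

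Differences between aPU.1KO and control were tested with edgeR 4.0.16 in R 4.3.3 (genes kept by filterByExpr, scaling by TMM, glmQLFit and glmQLFTest), p-values were adjusted over 13925 genes by the Benjamini-Hochberg method, and SE was taken from the coefficient and its F statistic. Log2 CPM used a prior count of 2. Depth limits the low genes, and intervals of counting error are not given. Alternatives were RLE and upper-quartile factors, at least 10 counts in every library, no filter, DESeq2 1.42.0, voom in limma 3.58.1, robust dispersion, legacy = FALSE, control library 1 thinned, each mouse left out, and the longest transcript for the per-length scale. DESeq2 on every gene and levels relative to marker lists were added after seeing the data. The fits were tested on simulated data.

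The 10 members and all lists were chosen with earlier results of these data known. Named besides the members were, from each companion list (relatives, receptors, partners, immediate early genes), the genes past an adjusted p of 0.05, the 3 lowest and the 2 highest log2 fold changes, from each marker list the 2 most abundant genes per length, and for each member the 2 genes of highest Pearson r. Mrc1, Mertk, Cd163, Pdgfrb, Ttr, Apoa1, Fgg and Lep fall outside that rule and were named after their values were seen. Some results are not reported here.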

Additional observations from a re-analysis of the deposited data

How the results depend on the processing

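All 9 members with a log2 fold change below 0 stayed below 0 under the 16 alternatives to the edgeR fit, and Thbs1 turned to -0.46 without aPU.1KO mouse 1 and was 0.60 at most (without aPU.1KO mouse 3). The number of members past an adjusted p of 0.05 was 0 in edgeR, 2 with no filter (Fn1 and Tnxb), 6 in DESeq2 both after the filter and on every gene, and 0 to 3 with 1 mouse left out. The number at an unadjusted p of 0.05 was 7, and 5 to 8 under the alternatives. Over all genes the 33 calls became 5 with at least 10 counts in every library, 146 with no filter, 1869 in DESeq2 and 1833 in DESeq2 on every gene, and 0 (without control mouse 1) to 1193 (without control mouse 2) with 1 mouse left out. In the companion lists the 1 call became 5 with no filter and 21 in DESeq2 under both settings, and 0 to 18 with 1 mouse left out. The share of Sparc in the summed per-length level of control adipocytes was 90.0% with merged exons and 92.8% with the longest transcript. The cause of these changes was not tested. Over the alternatives the adjusted p ran from 5.62e-10 to 0.189 for Fn1 and from 2.29e-07 to 0.313 for Tnxb. No paired analysis was possible because the labels number the mice singly and no number is shared between the groups. The study describes its controls as littermates, but the labels do not say which mice shared a litter.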
